A study of Arabidopsis thaliana with 6 samples.

Results

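The 10 genes described here are the early phenylpropanoid and flavonol genes of Arabidopsis thaliana, chosen by gene ID from the 34262 features of the deposited table. They are PAL1 (AT2G37040), C4H (AT2G30490), CHS (AT5G13930), CHI (AT3G55120), F3H (AT3G51240), F3'H (AT5G07990, also called TT7), FLS1 (AT5G08640), MYB11 (AT3G62610), MYB12 (AT2G47460) and MYB111 (AT5G49330). Poly(A) RNA was sequenced from whole seedlings of 3 genotypes, all in the Col-0 ecotype background, with 2 libraries each. Col-0 was the wild type, lhp1-3 was mutant for LHP1 (LIKE HETEROCHROMATIN PROTEIN1), a protein that binds Polycomb-marked chromatin, and importin123 was a triple mutant in importin alpha genes, which encode adaptors that carry proteins into the nucleus. All seedlings grew on a diluted MS medium with 0.8% sucrose, with 16 h of light and 8 h of dark per day, and were collected at ZT12. The sources used here do not give seedling age, the nature of each allele or the number of plants per library. The labels do not state that libraries of a genotype were grown apart, so each p-value reflects the spread among these samples only, and that spread may be technical. In whole seedlings, fewer cells that use a gene and less RNA of it per cell cannot be told apart.

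The phenylpropanoid pathway turns phenylalanine into activated phenolic acids, from which plants make lignin, sinapate esters and flavonoids. PAL1 encodes a phenylalanine ammonia-lyase, the entry enzyme, and C4H encodes cinnamate 4-hydroxylase, the next step. CHS (chalcone synthase) commits carbon to flavonoids, CHI (chalcone isomerase) closes the ring, F3H (flavanone 3-hydroxylase) makes dihydroflavonols, and F3'H adds a hydroxyl group that separates quercetin from kaempferol derivatives. At dihydroflavonols the pathway divides. FLS1, the main flavonol synthase, makes flavonols, which act as sunscreens and affect auxin transport in seedlings, while DFR (dihydroflavonol reductase) leads to anthocyanins and tannins. MYB11, MYB12 and MYB111 are closely related R2R3-MYB factors that activate CHS, CHI, F3H and FLS1, with MYB12 known mainly from roots and MYB111 mainly from cotyledons.

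The 250 bases before the annotated gene start were read for the 10 genes and for DFR, because light-regulated flavonoid promoters are known to carry the G-box CACGTG, a palindrome that reads the same on both strands. The G-box was in 3 of the 10 windows, those of CHS, F3H and MYB12, and in that of DFR, against 6.49% of 27443 protein-coding promoter windows of the same length. The windows with a match are printed 5′ to 3′ on the strand of the gene, from the RefSeq TAIR10.1 genome, with the G-box in capitals. CHS lies at chr5:4488226-4488475 on the plus strand, F3H at chr3:19024942-19025191 on the plus strand, MYB12 at chr2:19476076-19476325 on the plus strand and DFR at chr5:17166033-17166282 on the minus strand.
CHS: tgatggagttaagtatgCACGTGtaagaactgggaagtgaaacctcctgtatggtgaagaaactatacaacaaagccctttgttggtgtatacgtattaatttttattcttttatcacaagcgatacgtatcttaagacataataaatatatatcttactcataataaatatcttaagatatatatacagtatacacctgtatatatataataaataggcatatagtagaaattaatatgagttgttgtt
F3H: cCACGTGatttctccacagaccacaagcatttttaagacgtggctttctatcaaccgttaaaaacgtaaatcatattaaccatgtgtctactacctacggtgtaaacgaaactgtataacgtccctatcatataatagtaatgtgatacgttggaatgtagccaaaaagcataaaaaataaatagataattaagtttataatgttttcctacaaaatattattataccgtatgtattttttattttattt
MYB12: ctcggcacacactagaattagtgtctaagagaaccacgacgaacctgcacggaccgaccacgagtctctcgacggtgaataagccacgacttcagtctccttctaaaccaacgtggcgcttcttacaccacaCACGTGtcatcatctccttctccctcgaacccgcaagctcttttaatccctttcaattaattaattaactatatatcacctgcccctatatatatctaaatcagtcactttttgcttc
DFR: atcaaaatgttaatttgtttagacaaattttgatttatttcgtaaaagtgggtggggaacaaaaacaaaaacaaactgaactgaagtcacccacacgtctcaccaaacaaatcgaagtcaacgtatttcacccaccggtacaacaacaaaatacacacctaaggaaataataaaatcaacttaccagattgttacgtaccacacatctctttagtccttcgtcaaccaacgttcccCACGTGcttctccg
The match lay 233 to 228 bases before the gene start in CHS, 249 to 244 in F3H, 118 to 113 in MYB12 and 14 to 9 in DFR. Of the elements bound by R2R3-MYB factors, 3 exact sequences were searched on both strands too, and variants of them were not searched. ACCTACC was found in 1.16% of all windows, ACCAACC in 2.69% and ACCTAAC in 2.46%, and 0 of the 10 windows held any of them. In the same annotation the CHS gene spans chr5:4488476-4490264 with 2 exons, FLS1 spans chr5:2803833-2805606 with 3 exons, and MYB111 spans chr5:19998823-20001572 on the minus strand with 3 exons. A match is a description of these letters, not a measured binding site.

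The libraries held 70137900 to 95101900 counts. The libraries labelled with a mutant carried fewer counts of the mutated genes. LHP1 stood at 5.46 and 5.11 RPKM in Col-0 and at 3.87 and 3.21 in lhp1-3, and IMPA1, IMPA2 and IMPA3 stood at 22.6 and 23.6, 31.2 and 33.2, and 10.4 and 11.2 RPKM in Col-0 against 3.06 and 3.43, 2.03 and 2.33, and 3.81 and 4.16 in importin123. A second difference was in 2304 nearly silent genes, taken from the lowest 10% by mean RPKM over all 6 libraries. Their median was 0.207 and 0.249 RPKM in Col-0, with 1.53 and 1.45 for lhp1-3 and 1.79 and 1.32 for importin123. That median served as the floor of each library. The chloroplast share of counts was 2.95% and 3.27% in Col-0 against 13.7% to 18.7% in the mutants. Over the 19796 nuclear genes that stood well above the floor, the median deposited log2 fold change against Col-0 was -0.43 in each mutant, and it was -0.04 between importin123 and lhp1-3. Each comparison is therefore given on the counts as deposited and on counts from which the floor of each library was subtracted, where the medians were 0.00, 0.01 and -0.01. Normalisation over the kept genes alone sets those medians near 0. The source of the floor and its part in the deposited medians were not tested. Markers of the tissues in a seedling also differed between genotypes. Summed RPKM over 4 leaf markers was 4390 to 4500 in Col-0, 2680 to 3120 in lhp1-3 and 1900 to 2490 in importin123. RCA and GAPA1 made up most of that sum and were called lower in importin123 on both scales. LHCB3 was called higher there on both scales (1.21 after subtraction, adjusted p = 0.00106, edgeR), and LHCA1 after subtraction only (0.60, adjusted p = 0.0235). Over 5 root markers the sums were 1160 to 1300, 1150 to 1280 and 835 to 876, most of it PYK10. In importin123 the other root markers stood at 28.7 and 28.1 RPKM for CASP1, 10.6 and 9.7 for COBL9, 9.95 and 8.83 for EXPA7 and 3.32 and 2.29 for NRT2.1, against 31.4 and 12.8, 5.04 and 1.54, 6.24 and 2.11, and 0.337 and 0.448 in Col-0. Over 4 floral organ markers the sums were 1.33 to 1.78, 30.7 to 32.4 and 6.57 to 8.96 against a floor of 1.79 and 1.32 RPKM per gene in importin123. As deposited, 4 were called higher in lhp1-3 and 3 in importin123. After subtraction AG was not tested. The other 3 genes had their highest counts in lhp1-3, which helped them pass as above the floor, and all 3 were called higher there. In importin123 AP3 and SEP3 lay at the floor. Their levels above it, normalised and scaled like RPKM, were 0.357 and 0.0901, and 0.0237 and 0.0688. Their importin123 calls (AP3 higher, SEP3 lower) therefore rest on what was left at the floor and are not read as changes. PI was called higher in importin123, at 2.14 and 1.5 above the floor against 0.233 and 0.256 in Col-0. Over 4 seed and seed coat markers the sums were 120 to 135, 20.2 to 21.7 and 245 to 372, most of it CRA1. As deposited in lhp1-3, CRA1 (-3.62) and OLEO1 (-2.31) were called lower, and BAN (2.42) and TT2 (2.32) higher. All 4 were called higher in importin123 as deposited. BAN and TT2 lay at the floor, with counts 1.06 and 1.2 times it, and were not tested after subtraction. None of the 17 markers was at 0 in any library, and the part of tissue content in the results below was not tested.

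Levels per library, in RPKM (reads per kb of gene span, scaled to the total of each library), placed CHS highest of the 10 genes and MYB11 or MYB111 lowest in every library. The early phenylpropanoid genes were abundant throughout. PAL1 stood at 181 and 118 RPKM in Col-0, with 155 and 161 for lhp1-3 and 133 and 121 for importin123. For C4H the levels were 194 and 165, 161 and 156, and 152 and 146 RPKM. For PAL1 every mutant library lay between the Col-0 libraries, whereas for C4H every mutant library lay below both.

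The flavonoid core genes covered a wide range of levels. CHS stood at 698 and 435 RPKM in Col-0, with 584 and 599 for lhp1-3 and 441 and 377 for importin123. CHI followed at 81.2 and 51.7, 67.1 and 68.2, and 47.2 and 41.2 RPKM. In both genes the lhp1-3 libraries lay between the Col-0 libraries and above those of importin123. F3H was measured at 104 and 63.4 RPKM in Col-0, with 99.4 and 106 for lhp1-3 and 87 and 86.8 for importin123. Its RPKM values overlapped between Col-0 and each mutant. F3'H had the lowest level of the structural genes, 16.3 and 10.8 RPKM in Col-0, with 17.5 and 17.5 for lhp1-3 and 17.6 and 18.5 for importin123, so that all mutant libraries lay above both Col-0 libraries on this scale.

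FLS1 stood at 131 and 75.2 RPKM in Col-0, with 117 and 115 for lhp1-3 and 69.1 and 65.7 for importin123. In RPKM the importin123 libraries lay below all others, and those of lhp1-3 lay between the Col-0 libraries. As normalised levels above the floor, FLS1 was 145 and 85.1 in Col-0 and 96.5 and 82 in importin123, which overlapped. In lhp1-3 it was 158 and 160, above both Col-0 libraries. The regulators were scarce. MYB12 was the most abundant of them in every library, at 8.22 and 5.06 RPKM in Col-0, with 7.57 and 6.73 for lhp1-3 and 6.32 and 5.36 for importin123, and both mutants lay within the Col-0 range. For MYB111 the levels were 2.22 and 1.86, 3.13 and 3.08, and 2.73 and 2.1 RPKM, and for MYB11 they were 0.682 and 1.2, 1.81 and 1.93, and 3.14 and 1.81 RPKM. These low levels lay near the floor of the mutant libraries. Averaged over libraries, MYB111 counts were 2.38 times the floor and MYB11 counts 1.62 times, so MYB11 did not pass the filter for subtracted counts and 9 of the 10 genes were tested there.

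**Figure D1:**
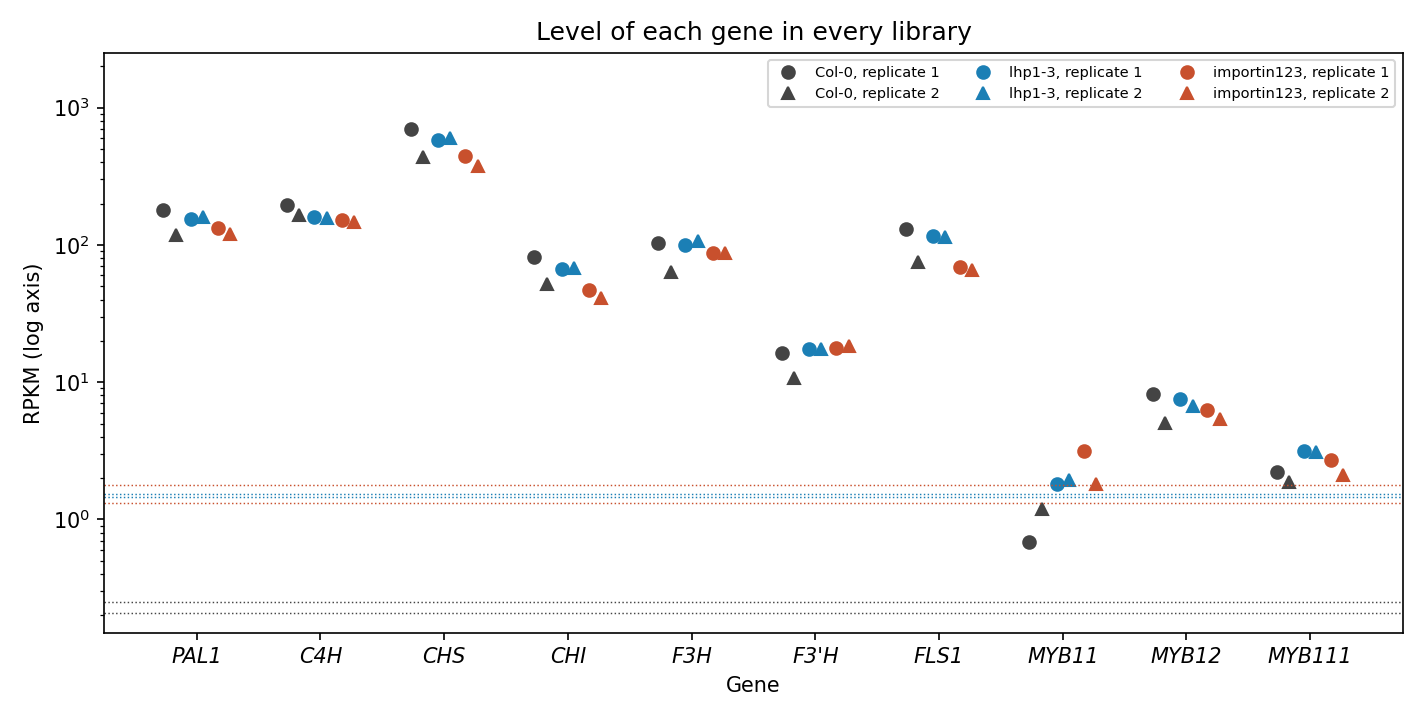
RPKM (log axis) of the 10 genes in each of the 6 libraries, with circles for replicate 1 and triangles for replicate 2, and dotted lines at the median RPKM of nearly silent genes in each library. CHS is highest, from 377 to 698 RPKM, and MYB11 and MYB111 lie close to the dotted lines of the mutant libraries.

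Reads of 2 of these genes cannot be assigned with certainty, since the sources used here do not say whether counting used strand. F3H overlaps the antisense noncoding gene AT3G51238 over 1588 bases, and that gene stood at 105, 63.5, 99.2, 105, 86.9 and 86.6 RPKM in the same order of libraries, close to F3H in each. MYB11 overlaps AT3G62615 on the opposite strand over 495 bases, and AT3G62615 stood at 0.591 and 1.75 RPKM for Col-0, 2.28 and 2.46 for lhp1-3, and 3.49 and 2.26 for importin123. Like MYB11, it was higher in RPKM in every mutant library than in either Col-0 library. As normalised levels above the floor, MYB11 was 0.529 and 1.09 in Col-0 and 0.386 and 0.669 in lhp1-3. In importin123 it was 1.93 and 0.619, and each mutant overlapped with Col-0. The part of AT3G51238 and AT3G62615 in the values of F3H and MYB11 was not tested.

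Most of these genes differed between the Col-0 libraries by more than they did between the libraries of either mutant. The Col-0 replicate 1 level was 1.74 times that of replicate 2 for FLS1, 1.64 times for F3H, 1.62 times for MYB12, 1.6 times for CHS, 1.57 times for CHI, 1.54 times for PAL1 and 1.5 times for F3'H. C4H (1.17 times) and MYB111 (1.19 times) differed less, and MYB11 went the other way (0.566 times). On the log2 CPM scale the median difference of the 10 genes was 0.60, and 7 of 10 lay above 0.5, against 3.85% of the genes well above the floor. In lhp1-3 the median was -0.09 with 0 of 10 above 0.5, and in importin123 it was 0.11 with 1 of 10, MYB11. These counts describe single pairs of libraries and have no test.

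**Figure D2:**
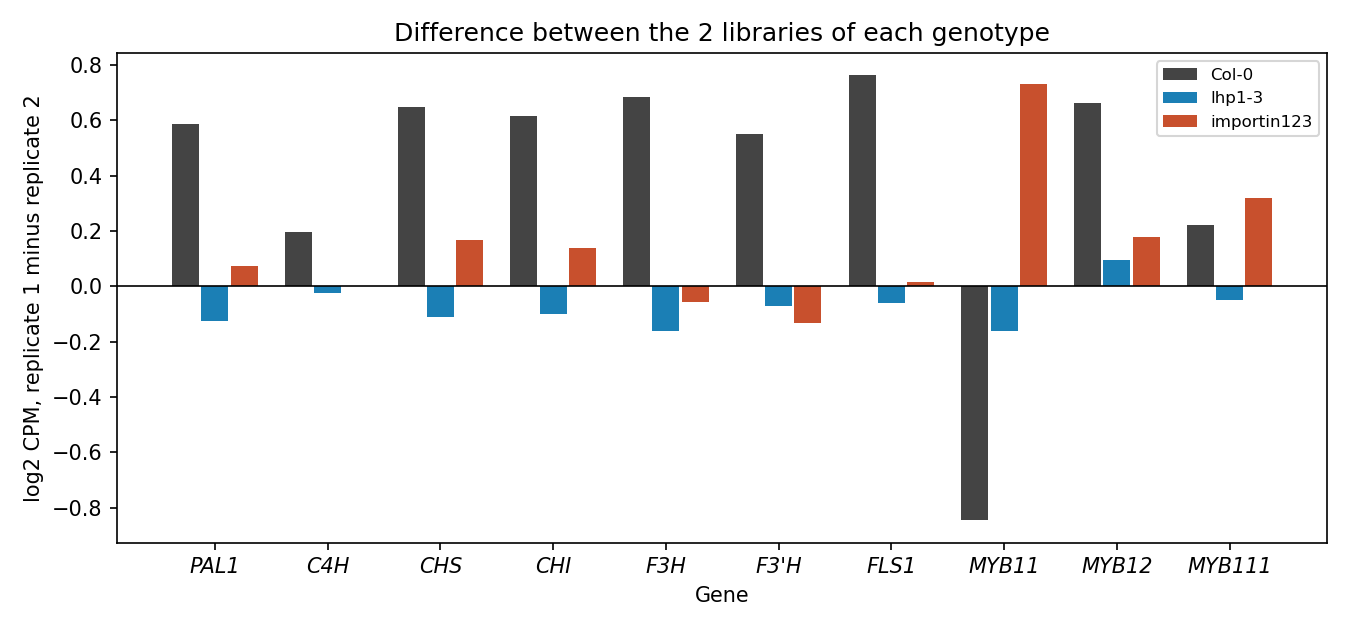
Difference in log2 CPM between replicate 1 and replicate 2 of each genotype for the 10 genes; bars are single differences with no error. In Col-0, 7 genes exceed 0.5, whereas none does in lhp1-3 and MYB11 alone does in importin123.

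Other genes differed in the same direction between the Col-0 libraries. Of the other pathway genes listed, 5 lay above 0.5. They were CHIL, which encodes a chalcone isomerase-like protein that aids flavonoid synthesis (0.74), KFB50 (0.70), whose Kelch F-box protein directs PAL turnover, the repressor gene MYB4 (0.58), the glutathione transferase gene TT19 (0.54) and the coumarate-CoA ligase gene 4CL3 (0.54). KFB39, MYBL2, MYB7, RHM1 and KFB20 lay between 0.41 and 0.47, and FLS6 (-0.52) and BAN (-0.755) went the other way. The root markers CASP1, COBL9 and EXPA7 differed by 1.26, 1.67 and 1.52, from 31.4 to 12.8, 5.04 to 1.54 and 6.24 to 2.11 RPKM, while the root markers PYK10 and NRT2.1 differed by 0.10 and -0.44. The leaf markers LHCB3, LHCA1, RCA and GAPA1 lay between -0.34 and 0.04. The part of root or leaf content in the difference was not tested.

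lhp1-3 was compared with Col-0 to ask how the genes respond to the LHP1 mutation. No gene of the 10 passed the test on both scales, and for most the sign differed between them. On deposited counts C4H and CHI fell, by edgeR's quasi-likelihood test with Benjamini-Hochberg adjustment over all features, and none rose, against 33.5% of all tested features called lower and 41.8% called higher. The log2 fold change was -0.63 ± 0.18 (SE, adjusted p = 0.00478) for C4H and -0.42 ± 0.18 (adjusted p = 0.0461) for CHI, which is 0.20 below and 0.01 above the median of expressed genes. The C4H call was lost on leaving out Col-0 replicate 1 (-0.53) or replicate 1 of lhp1-3 (-0.57). CHI lost it without Col-0 replicate 1 (-0.08), lhp1-3 replicate 1 (-0.33), lhp1-3 replicate 2 (-0.47), importin123 replicate 1 (-0.37) or importin123 replicate 2 (-0.37), and stood at -0.70 without Col-0 replicate 2. The median of the 10 genes was -0.30, against 0.17 over all features tested and -0.43 over the genes well above the floor.

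After subtraction all 9 tested genes had values above 0 in lhp1-3, from 0.11 for C4H to 0.58 for F3H, but 0 passed edgeR's test, against 9.86% of genes called higher and 6.25% called lower. At an unadjusted p under 0.05 the count was 2 higher and 0 lower, and DESeq2 called 2 higher. The nearest to the threshold were F3'H at 0.57 ± 0.17 (adjusted p = 0.0617) and F3H at 0.58 ± 0.21 (adjusted p = 0.109). The others were FLS1 at 0.46 ± 0.24, PAL1 at 0.37 ± 0.21, CHS at 0.36 ± 0.23, CHI at 0.30 ± 0.21, MYB111 at 0.14 ± 0.22 and MYB12 at 0.13 ± 0.23 (SE). The member median was 0.36 against 0.00 over all genes tested. Without Col-0 replicate 1, 4 genes passed as higher, F3H at 0.94, FLS1 at 0.87, F3'H at 0.86 and CHI at 0.62, and without Col-0 replicate 2 the count was 0.

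importin123 was compared with Col-0 to ask how the genes respond to loss of importin alpha function. On deposited counts 7 of 10 genes were called lower and MYB11 higher by the same edgeR test. Of all features tested, 33.2% were called lower and 42.3% higher, shares that include features at the floor. None of the 7 passed after subtraction. FLS1 (-1.14 ± 0.21, adjusted p = 0.000244), CHI (-1.12 ± 0.18, adjusted p = 5.9e-05) and CHS (-0.998 ± 0.229, adjusted p = 0.000901) had the lowest log2 fold changes. They lay 0.71, 0.69 and 0.57 below the median of expressed genes. C4H (-0.80 ± 0.18), PAL1 (-0.77 ± 0.21), MYB12 (-0.71 ± 0.19) and F3H (-0.47 ± 0.20) also passed, at 0.38, 0.34, 0.29 and 0.05 below that median. F3'H (-0.11 ± 0.16, adjusted p = 0.527) and MYB111 (-0.29 ± 0.16, adjusted p = 0.112) did not. MYB11 stood at 0.84 ± 0.30 (adjusted p = 0.0236), a gene near the floor. The median of the 10 genes was -0.74, against 0.20 over all features tested and -0.43 over the genes well above the floor.

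Of these deposited calls, those of PAL1, F3H, MYB12 and MYB11 were lost with 1 library left out. Without Col-0 replicate 1, FLS1 stood at -0.71, CHI at -0.78, CHS at -0.64 and C4H kept its call, whereas PAL1 (-0.45), F3H (-0.10), MYB12 (-0.35) and MYB11 (0.48) lost theirs. MYB12 also lost it without importin123 replicate 1 (-0.69) or importin123 replicate 2 (-0.58), and MYB11 without importin123 replicate 1 (0.54). F3H lost it without lhp1-3 replicate 1 (-0.40), lhp1-3 replicate 2 (-0.48), importin123 replicate 1 (-0.33) or importin123 replicate 2 (-0.46). Without Col-0 replicate 2, F3H stood at -0.78 and MYB11 at 1.33.

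On subtracted counts F3'H rose and MYB111 fell in importin123, 1 of 9 in each direction, against 20.3% of genes called higher and 21% called lower. F3'H changed by 0.57 ± 0.17 (adjusted p = 0.0325, edgeR), against the opposite sign as deposited (-0.11), and MYB111 by -0.81 ± 0.23 (adjusted p = 0.0257). For MYB111 the normalised level above the floor, scaled like RPKM, was 2.24 and 1.83 in Col-0, with 2.19 and 2.29 for lhp1-3 and 1.35 and 0.985 for importin123. The importin123 values lay below those of both other genotypes, which overlapped, and the counts were close to the floor. The other 7 genes lay between -0.37 for FLS1 and 0.30 for F3H, with PAL1 at 0.02 ± 0.21, C4H at -0.02 ± 0.14 and CHS at -0.20 ± 0.23 (SE), and the member median was -0.20 against 0.01 over all genes tested. F3'H lost the call without Col-0 replicate 2 (0.30), lhp1-3 replicate 1 (0.57), lhp1-3 replicate 2 (0.56), importin123 replicate 1 (0.55) or importin123 replicate 2 (0.60), and stood at 0.87 without Col-0 replicate 1. MYB111 lost it without Col-0 replicate 1 (-0.67) or importin123 replicate 2 (-0.60). Without Col-0 replicate 2, CHI (-0.65), FLS1 (-0.71) and MYB12 (-0.63) passed as lower, and without Col-0 replicate 1, F3H (0.67) passed as higher.

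The comparison of importin123 with lhp1-3 uses no Col-0 level, and the libraries carried floors of like size. Its SE and p-values still drew on the spread in all 6 libraries, Col-0 included. For FLS1 the log2 CPM difference between replicates was 0.76 in Col-0, -0.06 in lhp1-3 and 0.015 in importin123. FLS1 was lower in importin123 on both scales. Its log2 fold change was -0.87 ± 0.21 on deposited counts (adjusted p = 0.0168, edgeR) and -0.83 ± 0.24 on subtracted counts (adjusted p = 0.0456), or 1.82 and 1.78 times lower. CHI fell by 0.70 on the log2 scale as deposited (SE 0.18, adjusted p = 0.0221) and stood at -0.66 ± 0.21 after subtraction (adjusted p = 0.0649). MYB111 stood at -0.45 ± 0.16 as deposited (adjusted p = 0.103) and fell after subtraction, with -0.95 ± 0.23 (adjusted p = 0.0242). In all, 2 of 10 genes were called lower and 0 higher as deposited, against 6.05% and 2.84% of features, and 2 of 9 were called lower and 0 higher after subtraction, against 13.6% and 8.77%.

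CHS stood at -0.62 ± 0.23 between the mutants as deposited (adjusted p = 0.118) and -0.56 ± 0.23 after subtraction (adjusted p = 0.124), although its mutant libraries did not overlap in RPKM. PAL1, C4H, F3H and MYB12 had values between -0.43 and -0.13 after subtraction and passed on neither scale. F3'H differed by 0.00 ± 0.17 after subtraction (adjusted p = 0.999). The member medians were -0.39 and -0.43 on the deposited and subtracted scales, against -0.03 and -0.01 over all genes tested. FLS1 lost its calls without lhp1-3 replicate 1 (-0.86 and -0.84), lhp1-3 replicate 2 (-0.84 and -0.79), importin123 replicate 1 (-0.81 and -0.95) or importin123 replicate 2 (-0.87 and -0.72), as deposited and subtracted. CHI lost its deposited call without lhp1-3 replicate 1 (-0.71), lhp1-3 replicate 2 (-0.65), importin123 replicate 1 (-0.71) or importin123 replicate 2 (-0.64), and passed after subtraction without Col-0 replicate 1 (-0.65) or Col-0 replicate 2 (-0.65). MYB111 lost its subtracted call without lhp1-3 replicate 1 (-0.98), lhp1-3 replicate 2 (-0.88) or importin123 replicate 2 (-0.74). Without Col-0 replicate 1, MYB12 (-0.38) and MYB111 (-0.45) passed as lower on deposited counts, and so did MYB111 without Col-0 replicate 2 (-0.45).

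**Figure D3:**
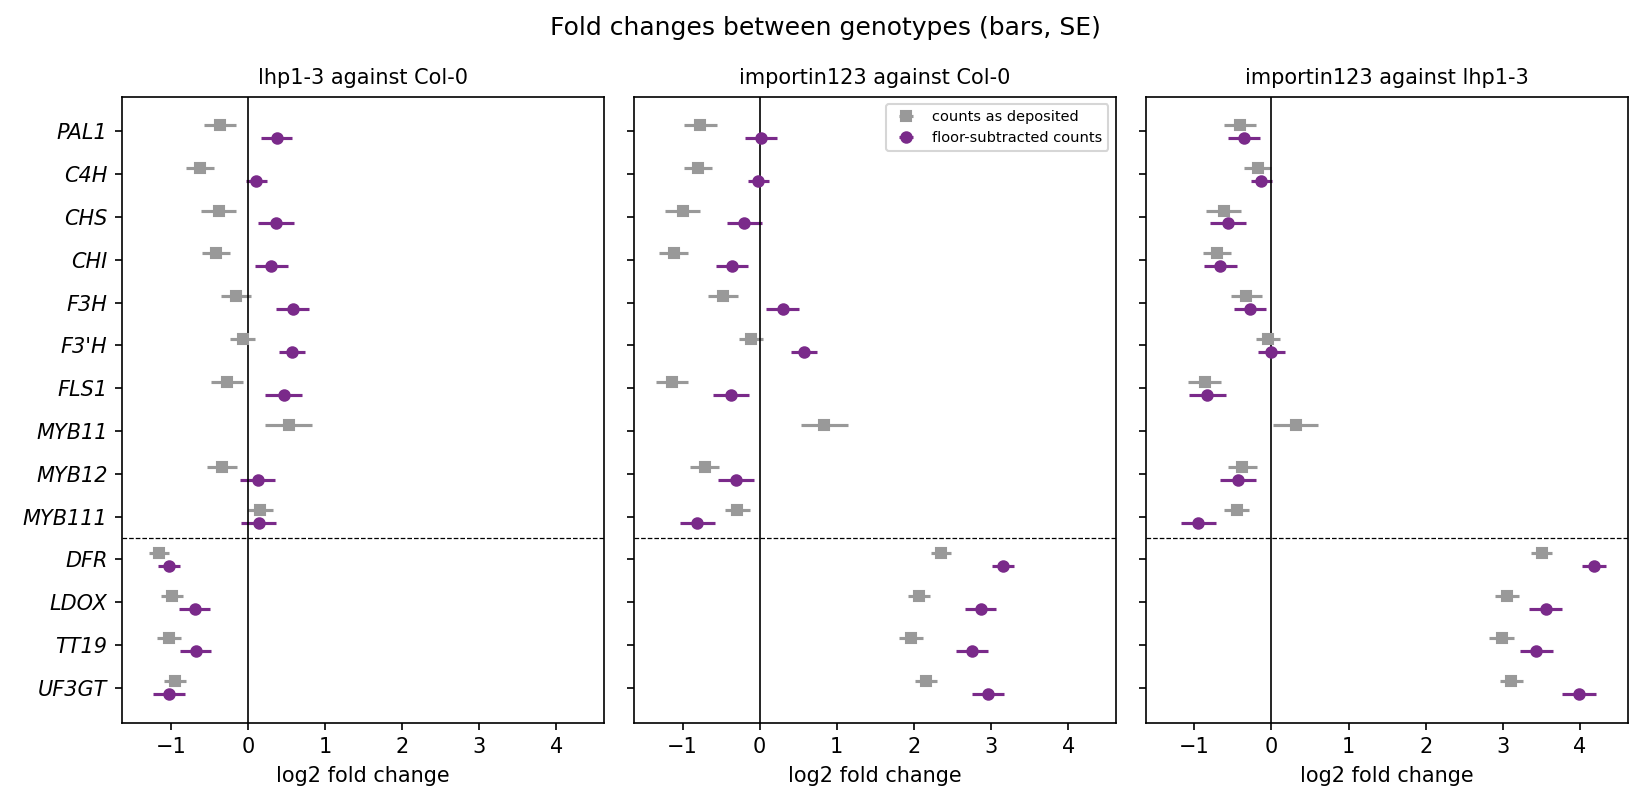
Log2 fold changes ± SE of the 10 genes and of 4 anthocyanin branch genes (below the dashed line) in the 3 comparisons, on counts as deposited (squares) and floor-subtracted counts (circles). Against Col-0 most of the 10 genes lie left of 0 as deposited and nearer to 0 or right of it after subtraction, FLS1 lies left of 0 on both scales between the mutants, and DFR lies at 3.16 in importin123 against Col-0 after subtraction.

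Ratios between genes within a library do not depend on library scaling. They were given no test, since 2 libraries against 2 cannot give an exact two-sided permutation p below 0.333. The ratio of CHI to CHS was nearly constant, at 0.116 and 0.119 in Col-0, with 0.115 and 0.114 for lhp1-3 and 0.107 and 0.109 for importin123. FLS1 to CHS stood at 0.187 and 0.173, 0.2 and 0.193, and 0.157 and 0.174, with importin123 and Col-0 overlapping. Between the Col-0 libraries, whose CHS levels differed 1.6 times, both ratios differed by less than the levels did.

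F3'H and F3H moved relative to CHS. F3'H to CHS stood at 0.0233 and 0.0249 in Col-0, with 0.03 and 0.0292 for lhp1-3 and 0.0399 and 0.049 for importin123, and the genotypes did not overlap. After subtraction the values were 0.023 and 0.0243, 0.0275 and 0.0269, and 0.0359 and 0.0456, in the same order. F3H to CHS followed that order too, with 0.149 and 0.146, 0.17 and 0.176, and 0.197 and 0.23. PAL1 to CHS overlapped between Col-0 (0.26 and 0.271) and lhp1-3 (0.266 and 0.269) and was higher in importin123 (0.301 and 0.32). C4H to PAL1 stood at 1.07 and 1.4 in Col-0, with 1.04 and 0.969 for lhp1-3 and 1.14 and 1.2 for importin123, so importin123 lay within the Col-0 range.

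The widest shift in these ratios was against DFR, the first gene of the anthocyanin branch. DFR itself stood at 7.06 and 6.06 RPKM in Col-0, with 4.14 and 3.88 for lhp1-3 and 51.1 and 45.4 for importin123. FLS1 to DFR was 18.5 and 12.4 in Col-0, with 28.2 and 29.7 for lhp1-3 and 1.35 and 1.45 for importin123. CHS to DFR went from 98.9 and 71.8 in Col-0 and 141 and 154 in lhp1-3 to 8.62 and 8.31 in importin123. In lhp1-3 the subtracted FLS1 to DFR ratios were 44.1 and 46.8, since DFR there lay closer to the floor.

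**Figure D4:**
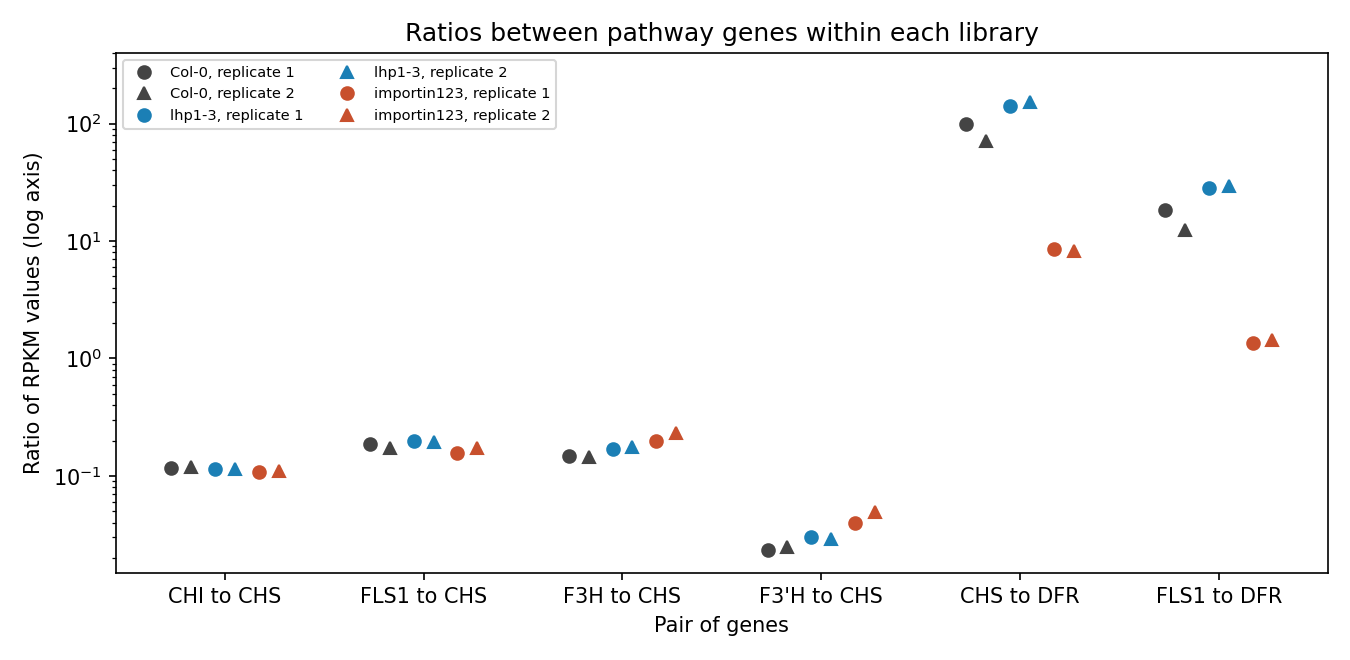
Ratios of RPKM values (log axis) for 6 pairs of genes in each library, circles for replicate 1 and triangles for replicate 2. CHI to CHS stays between 0.107 and 0.119 in all 6 libraries, F3'H to CHS is lowest in Col-0 and highest in importin123, and FLS1 to DFR is 1.35 and 1.45 in importin123 against 12.4 to 29.7 elsewhere.

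The anthocyanin branch genes were higher in importin123, where 20.3% of all genes tested were called higher on subtracted counts. On subtracted counts 4 of 4 tested genes rose in importin123 against Col-0 by edgeR's test, namely DFR (3.16 ± 0.14, adjusted p = 3.17e-05), LDOX, the anthocyanidin synthase gene (2.87), TT19, a glutathione transferase gene for pigment transport (2.75), and UF3GT, an anthocyanin glycosyltransferase gene (2.96). The fifth, BAN, the tannin reductase gene, was not testable above the floor. LDOX stood at 8.37 and 6.59 RPKM in Col-0 and at 48.3 and 42.3 in importin123. In lhp1-3, DFR fell by 1.02 on the log2 scale (adjusted p = 0.00364) and UF3GT by 1.02 (adjusted p = 0.017), the latter lost without lhp1-3 replicate 1 or 2 and between -1.23 and -0.84 with any 1 library left out. PAP1, an anthocyanin-activating MYB gene, rose in importin123 by 2.05 (adjusted p = 0.000541), from 1.1 and 1.16 to 4.85 and 4.49 RPKM. The floor in importin123 was 1.79 and 1.32 RPKM. PAP1 counts averaged 2.33 times the floor and were highest in importin123. Without the importin123 libraries they would not have reached 2 times the floor, so the subtracted calls of PAP1 are given as values only. PAP2, of the same list, stood at 0.06 ± 0.18 there (adjusted p = 0.805, edgeR) and at -0.22 as deposited. Between importin123 and lhp1-3 all 4 of these structural genes rose, with DFR at 4.18, against 8.77% of all genes tested called higher.

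The other listed genes of the pathway were tested on subtracted counts with the same edgeR fit. Over all genes tested, 9.86% were called higher and 6.25% lower in lhp1-3, and 20.3% and 21% in importin123. Between importin123 and lhp1-3 these shares were 8.77% and 13.6%. Of 9 other entry genes, 1 rose and 1 fell in lhp1-3, 2 rose and 1 fell in importin123, and 3 rose and 3 fell between importin123 and lhp1-3, with medians of 0.24, 0.05 and -0.01. In lhp1-3 the change was a rise of 4CL5 (0.40, adjusted p = 0.0355) and a fall of PAL3 (-0.52, adjusted p = 0.022), lost without either Col-0 or lhp1-3 library for 4CL5 (0.35 at the lowest) and without Col-0 replicate 2 or lhp1-3 replicate 1 for PAL3 (-0.42 nearest to 0). The 4-coumarate ligase genes 4CL2 (0.86, adjusted p = 0.00113) and 4CL5 (0.76, adjusted p = 0.00118) rose in importin123, and ATR2, a P450 reductase gene, fell (-0.45, adjusted p = 0.00954, lost without Col-0 replicate 2, with values from -0.49 to -0.42). Between the mutants PAL2, which encodes a second lyase, fell (-0.69, adjusted p = 0.0178) and so did 4CL3, the ligase gene tied to flavonoids (-1.05, adjusted p = 0.00593). The call of PAL2 was lost without either lhp1-3 library or importin123 replicate 2 (-0.81 to -0.57 over the libraries left out), and that of 4CL3 without either lhp1-3 library or importin123 replicate 1 (-1.11 to -0.999). In RPKM, 4CL3 stood at 13.8 and 9.27 in Col-0, with 15.7 and 15.3 for lhp1-3 and 8.57 and 8.4 for importin123.

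Of 13 flavonoid and flavonol companion genes, 11 were testable above the floor. Shares called higher and lower over all genes tested were 9.86% and 6.25% in lhp1-3, 20.3% and 21% in importin123, and 8.77% and 13.6% between the mutants. In lhp1-3, 2 rose and 1 fell, in importin123, 2 rose and 3 fell, and between the mutants 1 rose and 5 fell, with medians of 0.15, -0.05 and -0.34. UGT73C6, a flavonol 7-O-glucosyltransferase gene, rose in lhp1-3 (0.75, adjusted p = 0.00266) and fell in importin123 (-1.02, adjusted p = 0.000298), with 32.9 and 29.7 RPKM in Col-0, with 42.7 and 45 for lhp1-3 and 14.1 and 14.5 for importin123. The libraries of the 3 genotypes did not overlap, and as deposited the lhp1-3 value was 0.04 (adjusted p = 0.781). UGT73C6 and the FLS paralogues belong to clusters of similar copies whose reads may be shared. FLS5, a paralogue of FLS1, fell in both lhp1-3 (-0.59, adjusted p = 0.0111) and importin123 (-0.98, adjusted p = 0.000543). Another paralogue, FLS2, rose in lhp1-3 (1.88, adjusted p = 0.00097). It was scarce, at 1.44 and 1.52 RPKM in Col-0 and 5.64 and 4.83 in lhp1-3, where the floor was 1.53 and 1.45. UGT78D1, a flavonol 3-O-rhamnosyltransferase gene, fell in importin123 (-0.51, adjusted p = 0.0037). The genes that rose in importin123 were FLS3 (0.62, adjusted p = 0.0208) and OMT1, a methyltransferase gene (0.47, adjusted p = 0.0116), with -0.01 and -0.30 as deposited. FLS3 lost the call without Col-0 replicate 2 or either importin123 library (0.46 at the lowest) and OMT1 without Col-0 replicate 2 or importin123 replicate 1 (0.40 at the lowest).

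Of 14 listed regulators 10 were testable. For these and the lists below, shares called higher and lower over all genes tested were 9.86% and 6.25% in lhp1-3 and 20.3% and 21% in importin123. Between the mutants the shares were 8.77% and 13.6%. In lhp1-3 0 passed (2 higher at an unadjusted p under 0.05), in importin123 PAP1 rose and 3 fell, and between the mutants 1 rose and 2 fell, with medians of 0.14, 0.01 and -0.36. The gene that rose between the mutants was PAP1 too, and it passed the filter only through its importin123 counts. Its calls are given as values only, also where they enter the counts below. The bZIP gene HYH, a homologue of the light regulator HY5, fell in importin123 (-0.83, adjusted p = 0.0029), from 20.3 and 17 RPKM in Col-0 to 10.4 and 10. HY5 (-0.55, adjusted p = 0.00585) and TTG1, a WD-repeat partner of pigment regulators (-0.52, adjusted p = 0.00362), fell as well. Of the 5 Kelch F-box genes of PAL and CHS turnover, KFB1 fell in importin123 (-0.89, adjusted p = 0.00189) and KFB39 rose (0.58, adjusted p = 0.0237, at -0.10 as deposited, lost without Col-0 replicate 2 or either importin123 library, with values from 0.34 to 0.83), whereas in lhp1-3 0 passed and 1 was higher at an unadjusted p under 0.05. Of 12 monolignol and sinapate genes, 1 fell in lhp1-3, the ferulate 5-hydroxylase gene F5H (-0.94, adjusted p = 0.00532), and 2 rose and 2 fell in importin123, where the cinnamyl alcohol dehydrogenase gene CAD5 rose (0.64, adjusted p = 0.00219, at -0.10 as deposited) and the sinapoyltransferase gene SNG1 fell (-0.76, adjusted p = 0.0131). Leaving out 1 library at a time placed SNG1 between -1.09 and -0.50. Between the mutants 3 of these 12 genes rose, CCR2 (1.16), CAD5 (0.56) and F5H (0.56), and 0 fell. F5H spanned 0.36 to 0.81 with 1 library left out and lost its call without lhp1-3 replicate 1 or either importin123 library. Of the Kelch F-box genes, KFB1 fell between the mutants (-0.76) and 0 rose. Of the subtracted calls in these 6 lists, 5 of 8 in lhp1-3, 16 of 22 in importin123 and 11 of 23 between the mutants held without each of the 6 libraries in turn.

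Profiles over the 6 libraries were compared with that of CHS by the root mean square distance of centred log2 CPM values, as a description with no test. Among 33905 other features CHI was nearest, at 0.052, where 0 means the same profile. AT2G44940 (0.0614), the microRNA gene MIR163 (0.0646), a noncoding feature with the same values as MIR163 in every library, and KAT5 (0.0691), a thiolase gene, came next. MIR163 stood at 42.4 and 24.2 RPKM in Col-0, with 35 and 33.5 for lhp1-3 and 26.4 and 23.8 for importin123. Of the 10 genes, PAL1 ranked 10, FLS1 16 and MYB12 30, followed by F3H at 391, C4H at 425, MYB111 at 3667, F3'H at 7849 and MYB11 at 21076. The points share libraries, depth and floor, and the Col-0 difference enters each distance.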

How the data were processed

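The authors deposited 1 table with counts and RPKM values for 34262 features in 6 libraries. Counts are whole reads per gene span, and the authors' RPKM values divide them by that span and the column total, as found from the values. FastQC, HISAT2, SAMtools, bedtools, edgeR and the TAIR10 build are named per the submitters' processing notes, while the sources used here give no versions, settings or strand option. Per the labels' protocols, libraries were made from 500 ng of DNase-treated TRIzol RNA by poly(A) isolation.

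The 10 genes, the gene lists and the floor subtraction were chosen with earlier results of these data known. Tests used edgeR 4.0.16 in R 4.3.3 (filterByExpr, TMM, robust quasi-likelihood, all 6 libraries, two-sided), with a Benjamini-Hochberg adjusted p under 0.05, over 33906 features. A floor was set per library as the median read density (per kb) of nuclear protein-coding genes in the lowest 10% by mean RPKM, with a span of 1000 bp or more, and scaled by gene span. Nuclear genes with a mean count at least 2 times the floor and at least 10 after subtraction were kept, 19796 tested. Named genes were the 10 genes, up to 4 list members per direction with the smallest adjusted p, the 5 features nearest to CHS and the mutated genes; among them, values of some were chosen for print after they were seen, as were the ratios beyond FLS1, F3'H and PAL1 to CHS and FLS1 to DFR. The fits were checked on simulated data.

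Pearson correlations of log2 CPM between replicates were 0.986, 0.992 and 0.99, and every pair differed beyond sampling noise (chi-square per degree of freedom 26.7, 21.8 and 52). With 2 libraries per genotype, their number limited the precision more than depth. Alternatives used DESeq2 1.42.0, RLE factors, other filters, nuclear genes only, 4 libraries, limma 3.58.1 on log2(RPKM + 1), a floor changed by 25%, a replicate block and each library left out. Windows before gene starts came from RefSeq TAIR10.1, where 32548 IDs matched. Protein sequences were not used here.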

Additional observations from a re-analysis of the deposited data

How the results depend on the processing

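Of the values of single genes as deposited, 199 kept direction and side of the threshold under other settings, 16 lost a call, 12 gained one and 13 changed sign. With 1 library left out the numbers were 137, 26, 8 and 9. The genes called in lhp1-3 against Col-0 (2) became 5 with RLE factors or DESeq2, 1 with a mean of at least 20 counts, nuclear genes only or 4 libraries, and 0 to 7 with 1 library left out, while limma on log2(RPKM + 1) called 2, both higher. In importin123 against Col-0 (8) they were 2 with limma and 4 to 8 with 1 library left out. Between the mutants (2) they were 0 with limma and 0 to 4. After subtraction they were 2 with DESeq2 and 0 to 4 with 1 library left out in lhp1-3 (0), 1 and 0 with the floor raised and lowered by 25% and 0 to 4 in importin123 (2), and 0 with the floor raised, 4 with DESeq2 and 0 to 3 between the mutants (2). The log2 ratios in lhp1-3 moved to -5.20 for F3'H to CHS and 5.51 for FLS1 to DFR after subtraction.

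Among the log2 fold changes that changed sign, CHI in lhp1-3 (-0.42) and F3H in importin123 (-0.47) were called as deposited. As deposited in lhp1-3, limma gave PAL1 0.11, CHS 0.10, CHI 0.06, F3H 0.33, F3'H 0.375, FLS1 0.22 and MYB12 0.12, MYB111 was -0.018 with RLE and -0.022 with DESeq2, and with 1 library left out F3H spanned -0.46 to 0.23, F3'H -0.32 to 0.23, FLS1 -0.605 to 0.16 and MYB12 -0.635 to 0.03. In importin123, limma gave F3H 0.095, F3'H 0.41 and MYB111 0.16, and F3'H spanned -0.37 to 0.19. Between the mutants limma gave F3'H 0.038, and F3'H spanned -0.12 to 0.083 and MYB11 -0.039 to 0.625. After subtraction in lhp1-3, C4H stood at -0.021 with the floor lowered and spanned -0.01 to 0.19, MYB12 -0.21 to 0.49 and MYB111 -0.025 to 0.27. In importin123, PAL1 stood at -0.13 with the floor lowered, C4H at 0.10 with it raised, and the spans were -0.26 to 0.33 for PAL1, -0.135 to 0.09 for C4H, -0.50 to 0.15 for CHS, -0.017 to 0.67 for F3H, -0.715 to 0.054 for FLS1 and -0.63 to 0.073 for MYB12. Between the mutants F3'H stood at 0.022 with the floor raised and 0.012 with DESeq2, and spanned -0.025 to 0.048. The cause was not tested.

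By the labels, same-numbered libraries shared only a number. Their deviations correlated at -0.014, -0.1 and 0.066 over all features tested, which cannot show whether they also shared a batch. With the replicate block 2, 7 and 2 genes were called as deposited and 0, 2 and 3 after subtraction, F3H in importin123 losing its deposited call (adjusted p = 0.057, edgeR) and CHI between the mutants gaining one after subtraction (adjusted p = 0.0365).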
